A study of Mus musculus with 3 samples.

Results

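The genes described here encode myosin light chains and thin filament proteins of the cardiac sarcomere. They are 4 myosin light chain genes (Myl2, Myl3, Myl4 and Myl7), 4 troponin genes (Tnnt2, Tnni1, Tnni3 and Tnnc1), the tropomyosin gene Tpm1 and the cardiac actin gene Actc1. They were chosen by name and are 10 of 21887 protein-coding genes of the RefSeq annotation on the autosomes and on chromosomes X and Y. Regions enriched for 5-methylcytosine (5mC) were mapped by immunoprecipitation of methylated DNA and sequencing (MeDIP-seq). Cardiomyocytes were the source of the DNA, and the mice were male, of the strain C57Bl6/J and 8 weeks old in both groups. The groups were Sham mice and mice under pressure overload, labelled TAC and of 1 week by the title of the series, with 1 antibody library each and an input library without antibody. The labels name no genetic change in either group and do not say whether a library pooled animals. Peaks that overlapped a gene body, from annotated start to end on mm10, or the 10 kb on either side were counted. These gene windows held 50 of the 135886 Sham peaks and 51 of the 162107 TAC peaks.

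Calcium binding to troponin C moves the troponin complex and tropomyosin on the actin filament and lets myosin heads attach, while the light chains stabilise and tune the myosin lever arm. The heart changes several of these proteins with development. The ventricle uses the light chains of Myl2 and Myl3 and, after birth, the troponin I of Tnni3, whereas Myl4 and Myl7 encode the atrial light chains, which the early heart tube also uses, and Tnni1 encodes the slow skeletal troponin I of the fetal heart. Tnnt2, Tnnc1, Tpm1 and Actc1 serve the heart at both stages. Methylation of cytosine in CpG dinucleotides is generally low at active promoters and common in the bodies of genes. A MeDIP peak marks enrichment of methylated DNA over input and is not a methylation level, and it grows with the local density of methylated CpGs.

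The light chain, troponin and thin filament genes carried nearly the same number of 5mC peaks in both libraries. The TAC to Sham ratio over all 10 windows was 1.02 (exact 95% interval 0.677 to 1.54), against 1.19 for the whole lists and 1.08 for the windows of all protein-coding genes. Windows of the adult isoform genes Myl2, Myl3 and Tnni3 held 15 peaks in Sham and 18 in TAC, which is a ratio of 1.20 (0.571 to 2.56). Windows of the fetal or atrial isoform genes Myl4, Myl7 and Tnni1 held 25 and 20, which is a ratio of 0.80 (0.421 to 1.5). The adult ratio is near that of the whole lists, and single genes did not all follow their class, with 9 and 8 peaks in Myl2 and 5 and 5 in Myl7. Both intervals hold 1 and overlap each other, so the numbers of peaks do not show that the classes differ. With 1 library per group no test between Sham and TAC was possible, and all intervals cover counting error only. The TAC library was the deeper, with 14658177 tags against 12585289 and 34.7% of them in peaks against 29.9%, per the file headers, and the part of this in any difference was not tested.

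Of the 10 genes, 9 had a peak in their window in Sham and the same number in TAC, where 78.3% and 83.6% of all protein-coding genes had one. Their windows were densely covered, at 1.41 Sham and 1.44 TAC peaks per 10 kb against 0.617 and 0.669 over the windows of all protein-coding genes. Over the 13361 protein-coding genes within the length range of the members (2146 to 41199 bp) the densities were 0.669 and 0.70. By class they were 1.64 and 1.97 for adult and 1.90 and 1.52 for fetal or atrial isoform genes. Genes used at both stages had 0.757 and 0.984, nearer to the values of all genes. More TAC than Sham peaks were found in 5 windows and fewer in 3, against 39.4% and 27.0% of all protein-coding genes. Most peaks had a counterpart. Of the 50 Sham peaks, 38 (76.0%, exact 95% interval 61.8 to 86.9) overlapped a TAC peak by at least 1 bp. In TAC, 37 of 51 (72.5%, 58.3 to 84.1) met one from Sham. Over the windows of all protein-coding genes 64.2% of Sham and 59.4% of TAC peaks did so, and over the whole lists 66.1% and 55.6%. The number of overlapping peaks differs by 1 because a pair at the edge of the Myl2 window lies inside it in Sham only. In gene bodies alone the shares were lower, at 57.1% (12 of 21) in Sham and 60.0% (12 of 20) in TAC. The Sham value there lies below the interval given for the windows.

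**Figure D1:**
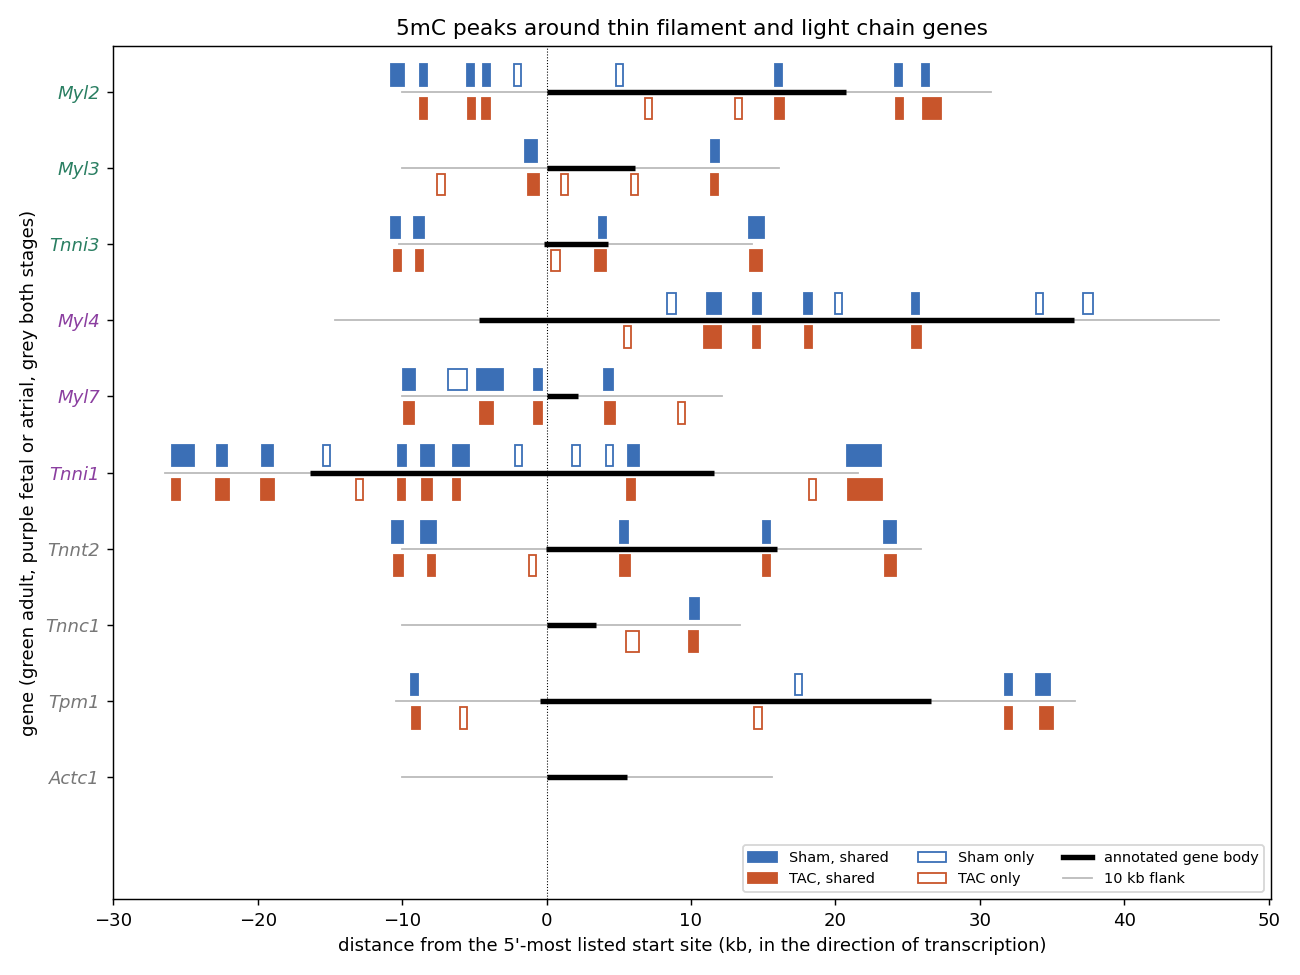
Positions of 5mC peaks around each gene, in kb from the listed start site that lies furthest 5' and in the direction of transcription, with Sham peaks above and TAC peaks below each line. Filled boxes overlap a peak of the other library and open boxes do not. Box width is the width of the peak, black bars are annotated gene bodies and grey lines the 10 kb flanks. Open boxes number 12 in Sham and 14 in TAC, and Actc1 has no box.

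Myl2 encodes the ventricular regulatory light chain and lies on chromosome 5 from 122092724 to 122113473. Its window held 9 Sham and 8 TAC peaks, with 2 unshared peaks in each library. The unshared Sham peaks were at 122090457 to 122090957, 1.77 kb upstream of the nearest listed start site, and at 122097532 to 122098032 within the gene. The unshared TAC peaks lay further into the gene, at 122099514 to 122100014 and at 122105778 to 122106278. The shared pair that differed most in width lay at the 3' side. It was 501 bp wide in Sham, at 122118715 to 122119215, and 1223 bp in TAC. That peak lies in Ccdc63, a coiled-coil protein gene that overlaps the 3' part of the annotated Myl2 gene.

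Myl3 encodes the ventricular essential light chain and lies on chromosome 9 from 110763678 to 110769802. It held 2 peaks in Sham, both shared, and 5 in TAC, the largest difference in favour of TAC among the 10 genes. The shared peaks lay 0.639 kb (Sham) and 0.512 kb (TAC) upstream of the start site, and downstream of the gene at 110775090 in Sham. The 3 TAC peaks without a Sham counterpart lay upstream at 110756115 to 110756615, 0.975 kb downstream of the start site at 110764653 to 110765153, and across the 3' end at 110769534 to 110770034. The window had no other annotated gene. Without Myl3 the adult isoform genes held 13 peaks in each library, so that the surplus of TAC peaks in that class rested on this gene.

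Myl4, the gene of the atrial and fetal essential light chain, lies on chromosome 11 from 104546017 to 104587215. It held 8 Sham and 5 TAC peaks, of which 4 in each library were shared. Of the unshared Sham peaks, 3 lay within the gene and the other, at 104587786 to 104588489, lay just beyond its 3' end, 11203 bp from the nearest TAC peak. The single unshared TAC peak was at 104556008 to 104556508. No peak lay within 5 kb of the listed start site in either library. The strongest shared peak overlapped the long non-coding RNA gene Gm11665, which lies inside the annotated span of Myl4.

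Myl7, the gene of the atrial regulatory light chain, is the shortest of the 10, with 2146 bp on chromosome 11 (5896637 to 5898782, minus strand). It held 5 peaks in each library, all in its flanks. A peak at 5899130 to 5899630 in Sham recurred in TAC with a shift of 1 bp, 0.348 and 0.349 kb upstream of the start site. Beyond the 3' end a peak at 5894151 to 5894788 in Sham overlapped one at 5894039 to 5894706 in TAC. A TAC peak at 5889200 to 5889700 had no counterpart.

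Tnni1, the gene of the slow skeletal and fetal troponin I, lies on chromosome 1 from 135783033 to 135810989 and had the most peaks of the 10 genes in both libraries, 12 in Sham and 10 in TAC. Within its annotated body 8 Sham and 5 TAC peaks were found, of which 4 Sham peaks and 1 TAC peak were unshared. The annotated body begins 16388 bp upstream of the first listed start site, and most of these peaks lay in that upstream part. The unshared Sham peaks at 135797232 to 135797732 and at 135801206 to 135801706 lay on either side of the listed start sites, 1.69 kb upstream and 1.70 kb downstream, and no TAC peak lay within 5 kb of these sites. Bases of the gene body under peaks numbered 5221 in Sham and 2633 in TAC. In Tnni3, the gene of the adult cardiac troponin I on chromosome 7 (4518305 to 4522718, minus strand), the 4 Sham peaks were all shared. TAC had 5, the additional one being a peak of 636 bp at 4521596 to 4522231, 0.297 kb downstream of the start site. Bases of the Tnni3 gene body under peaks numbered 501 in Sham and 1407 in TAC.

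Tnnt2, the gene of cardiac troponin T, lies on chromosome 1 from 135836315 to 135852268, downstream of Tnni1 on the same strand, and the windows of the pair do not overlap. Its 5 Sham peaks were all shared, and TAC had 1 more, at 135835094 to 135835594, 0.740 kb upstream of the first listed start site. That peak stood low in the TAC list, behind 88.6% of its entries. Tnnc1, the troponin C gene of heart and slow muscle on chromosome 14 (31208312 to 31211729), had no peak in its body in either library, 1 shared peak in its flank and a TAC peak of 899 bp at 31213842 to 31214740 without counterpart. Tpm1, the gene of alpha-tropomyosin on chromosome 9 (67022590 to 67049672, minus strand), held 4 Sham and 5 TAC peaks, of which 3 pairs were shared and lay in the flanks. A further TAC peak in the 5' flank, at 67054688 to 67055188, had no counterpart. In the Tpm1 body each library had 1 peak, and these lay 2290 bp apart (67031537 to 67032037 in Sham and 67034327 to 67034827 in TAC).

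Actc1, the gene of cardiac alpha-actin on chromosome 2 (114047282 to 114052875, minus strand), was the member without any peak in its body or flanks. This was also the case for 12.7% of all protein-coding genes. The nearest peak beyond the annotated span of Actc1 was 19.1 kb away in Sham and 14.3 kb away in TAC. Together with Myl7 and Tnnc1, Actc1 was 1 of 3 genes with no peak in the gene body in either library, against 35.0% of all protein-coding genes. A list of called peaks gives no signal below the threshold, so methylation beneath it was not measured.

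**Figure D2:**
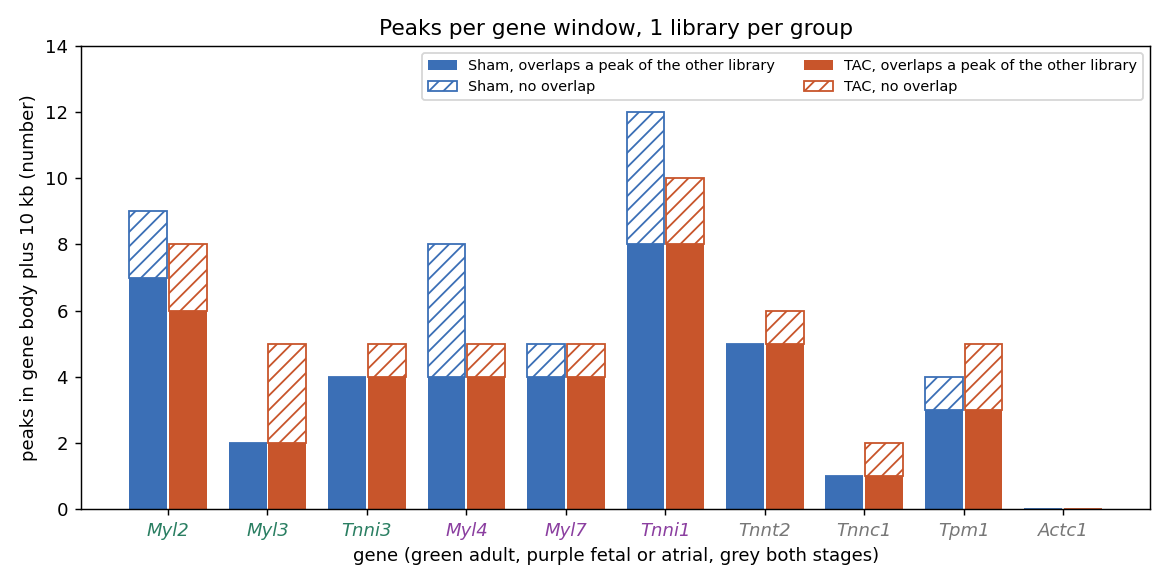
Number of peaks in the gene body plus 10 kb for each gene, with Sham in blue and TAC in orange. Filled parts overlap a peak of the other library and hatched parts do not. Sham counts exceed TAC counts in Myl2, Myl4 and Tnni1, TAC counts exceed Sham counts in Myl3, Tnni3, Tnnt2, Tnnc1 and Tpm1, and Myl7 has 5 in each.

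Gene ends were compared next, since the 5' end holds the promoter. A peak that reached within 1 kb of either boundary of the annotated gene was found for 6 of 10 genes in Sham and 4 of 10 in TAC, where 23.6% and 24.5% of all protein-coding genes had one. Myl3, Myl7, Tnnt2 and Tnni3 were covered in both libraries (16.0% of all protein-coding genes). Myl4 and Tnni1 were covered in Sham alone, as were 7.68% of all protein-coding genes, and Myl2, Tnnc1, Tpm1 and Actc1 in neither. None was covered in TAC alone, as were 8.59% of all. The pair covered in Sham alone are fetal isoform genes, but the covered end was not the listed promoter in either. In Myl4 it was the 3' end. In Tnni1 it was the annotated 5' boundary, which lies 16388 bp upstream of the listed start site in the promoter table, and the peak there was 15.0 kb from the nearest listed start site. With a reach of 500 bp neither gene was covered in either library.

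Measured at the listed start sites themselves, coverage was the higher in TAC. A peak lay within 1 kb of a listed start site in 2 genes in Sham, Myl3 and Myl7, and in 4 genes in TAC, these and Tnni3 and Tnnt2. Of all protein-coding genes with a listed start site 12.8% were covered in Sham and 14.2% in TAC, with 5.72% in TAC alone and 4.29% in Sham alone. The Tnnt2 peak was lost at a nearly equal depth-scaled threshold, and likewise in a TAC list shortened to the number of Sham peaks, which left 3 genes in TAC. With at least 20 inferred tags per 10000000, a measure from the order of the lists that is described with the peak pairs, the Tnni3 peak was lost too, which left 2 genes in each library. With a reach of 2 kb, 4 genes were covered in each library, as Myl2 and Tnni1 were then covered in Sham alone.

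The sequences of these promoters are shown because the antibody enriches DNA by its methylated cytosines, which lie mostly in CpGs. The first pair had a peak within 1 kb in both libraries, Tnni3 and Tnnt2 in TAC alone, Tnni1 had Sham peaks on either side and Myl4 had none nearby. Each runs from 250 bases before to 50 bases after the listed start site (RefSeq, GRCm38.p6), 5' to 3', with CpG dinucleotides in capitals.
Myl3, chr9:110763428-110763727, plus strand: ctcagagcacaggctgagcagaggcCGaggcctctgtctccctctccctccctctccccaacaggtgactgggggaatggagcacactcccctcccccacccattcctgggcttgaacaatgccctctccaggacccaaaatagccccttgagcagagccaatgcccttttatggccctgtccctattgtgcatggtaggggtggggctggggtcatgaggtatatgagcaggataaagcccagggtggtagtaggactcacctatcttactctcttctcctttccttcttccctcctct
Myl7, chr11:5898733-5899032, minus strand: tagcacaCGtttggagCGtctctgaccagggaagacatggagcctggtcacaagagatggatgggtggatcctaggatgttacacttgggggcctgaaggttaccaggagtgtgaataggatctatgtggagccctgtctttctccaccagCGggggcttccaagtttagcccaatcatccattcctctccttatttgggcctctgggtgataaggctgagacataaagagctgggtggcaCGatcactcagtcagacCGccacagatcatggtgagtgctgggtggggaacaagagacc
Tnni3, chr7:4522479-4522778, minus strand: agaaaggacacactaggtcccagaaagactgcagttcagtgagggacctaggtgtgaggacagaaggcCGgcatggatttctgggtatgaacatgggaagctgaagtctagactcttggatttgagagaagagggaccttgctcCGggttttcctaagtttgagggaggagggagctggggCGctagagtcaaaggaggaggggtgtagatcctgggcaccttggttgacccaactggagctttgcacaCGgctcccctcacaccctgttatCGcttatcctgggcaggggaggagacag
Tnnt2, chr1:135836084-135836383, plus strand: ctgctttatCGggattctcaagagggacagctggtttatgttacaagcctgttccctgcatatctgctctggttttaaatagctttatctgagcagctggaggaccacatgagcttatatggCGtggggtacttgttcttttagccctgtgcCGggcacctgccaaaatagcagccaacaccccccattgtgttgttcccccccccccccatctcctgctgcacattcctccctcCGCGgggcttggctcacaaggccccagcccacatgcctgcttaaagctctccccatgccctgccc
Tnni1, chr1:135799171-135799470, plus strand: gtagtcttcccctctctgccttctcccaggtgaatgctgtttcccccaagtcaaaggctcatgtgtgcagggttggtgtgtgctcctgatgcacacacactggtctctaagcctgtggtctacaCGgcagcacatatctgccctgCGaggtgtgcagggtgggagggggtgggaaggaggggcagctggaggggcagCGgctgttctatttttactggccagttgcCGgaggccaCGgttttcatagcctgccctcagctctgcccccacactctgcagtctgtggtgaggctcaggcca
Myl4, chr11:104550413-104550712, plus strand: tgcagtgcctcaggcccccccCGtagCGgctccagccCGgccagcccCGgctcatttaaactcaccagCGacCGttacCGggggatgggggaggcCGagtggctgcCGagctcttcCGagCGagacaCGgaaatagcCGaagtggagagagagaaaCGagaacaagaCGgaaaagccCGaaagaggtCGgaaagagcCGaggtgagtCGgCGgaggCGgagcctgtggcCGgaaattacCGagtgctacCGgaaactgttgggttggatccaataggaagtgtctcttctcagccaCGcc

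All 10 genes had entries in the promoter table, with 13 windows in all. The windows differed widely in CpG content. That of Myl3 held 1 CpG, those of Myl7, Tnni3 and the first sites of Tnni1 and Tnnt2 held 5 each, that of Myl4 held 25 and that of Tpm1 held 27. The median over all 32851 windows of the table was 7. The CpG-rich windows of Myl4 and Tpm1 had no peak within 1 kb of their start sites in either library. Windows with few CpGs lacked one too. They were those of Tnnc1, the first Myl2 site and the second Tnnt2 site with 1 CpG each, and the Tnni1 sites with 5 and 6. Actc1 and the second Myl2 site, with 7 each, also had none. In the whole table a peak within 1 kb of the start site was least common for windows with 21 or more CpGs, at 8.38% in Sham and 9.06% in TAC, and most common for windows with 6 to 10, at 24.7% and 23.4%. No peak overlapped any of the 13 windows, and 4.89% (Sham) and 4.86% (TAC) of all windows were overlapped. The peaks near these promoters thus began outside the 300 bases shown.

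Motifs of muscle promoters were searched on both strands of the 13 windows, without regard to overlap between motifs. The E box (CANNTG), bound by basic helix-loop-helix factors, was found in 12 of the 13 windows (9 genes) and in 72.3% of all windows of the table. The MCAT element (CATTCC), bound by TEAD factors, was found in 5 of the 13 windows (5 genes) and in 14.7% of all windows. The CArG box, bound by serum response factor, was found in 3 of the 13 windows, those of Actc1, Myl3 and Myl7, and in 1.63% of all windows. The MEF2 site was found in none of the 13 and in 3.19% of all windows. A match is a stretch of letters, not a bound site. Of the 3 genes with a CArG box, Myl3 and Myl7 had a peak within 1 kb of the start site in both libraries and Actc1 had no peak.

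The bases under all window peaks were fewer in TAC for each fetal isoform gene and more for each adult one, but this split depended on peaks that lie in neighbouring genes. In the fetal or atrial class the covered part of the window was smaller in TAC for all 3 genes. It was 7.92% in Sham and 5.41% in TAC for Myl4, 22.8% and 14.6% for Myl7, and 18.7% and 12.8% for Tnni1. In the adult class it was larger in TAC for all 3 genes, at 10.1% and 11.9% for Myl2, 5.13% and 10.6% for Myl3, and 5.77% and 8.61% for Tnni3. Summed over the class, 18835 bp (14.3% of the windows) were under Sham peaks and 12685 bp (9.66%) under TAC peaks of fetal isoform genes, against 6854 bp (7.51%) and 9717 bp (10.6%) for adult isoform genes. Without the peaks whose midpoint lies in another annotated gene, a setting chosen after seeing the data, the direction turned in 1 gene of each of these classes. Myl2 then had 2601 bp under Sham and 2505 bp under TAC peaks, since its TAC surplus lay in Ccdc63, and Myl7 had 1139 and 1670 bp. The direction stayed for Myl3 (1341 and 2758 bp), Tnni3 (558 and 1501 bp), Myl4 (4219 and 2130 bp) and Tnni1 (8197 and 5418 bp). The class sums were then 4500 and 6764 bp for adult and 13555 and 9218 bp for fetal isoform genes. Among genes used at both stages, with all window peaks, the covered part was 8.43% and 8.25% for Tnnt2, 2.69% and 6.52% for Tnnc1, 5.19% and 6.26% for Tpm1, and nil for Actc1. Without peaks in other genes Tnnt2 also turned, with 1844 bp in Sham and 2397 bp in TAC. Over the windows of all protein-coding genes 4.08% was covered in Sham and 4.26% in TAC, with more bases covered in TAC in 46.8% of genes and fewer in 36.0%. Within the length range of the members these shares were 43.9% and 38.5%. No test of the difference between the classes was made, since each group has 1 library.

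**Figure D3:**
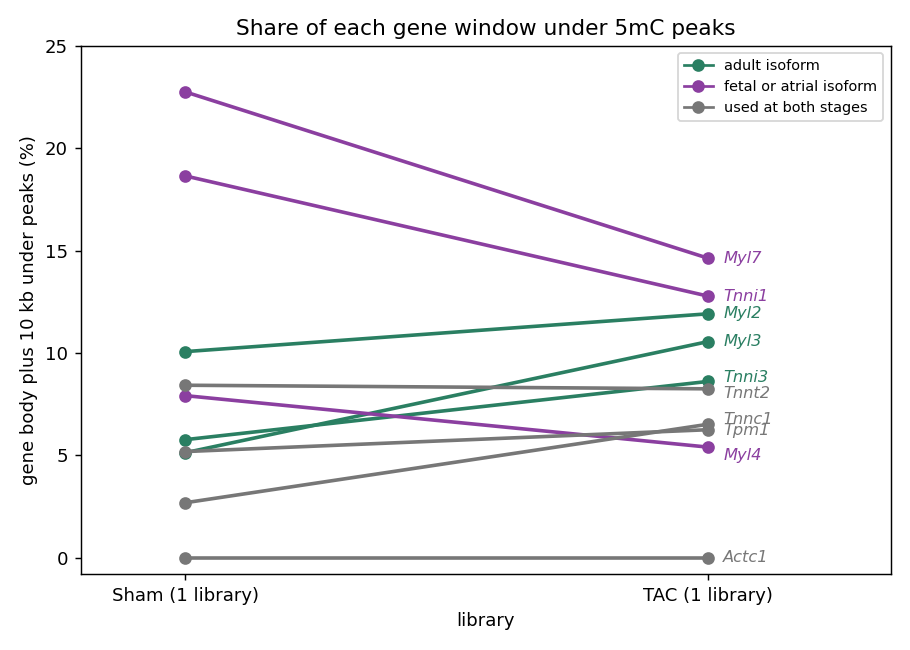
Percent of each gene window (gene body plus 10 kb) under peaks in the Sham and the TAC library, 1 line per gene, coloured by isoform class. The 3 lines of fetal or atrial isoform genes run downward, as from 22.8% to 14.6% in Myl7, and the 3 lines of adult isoform genes run upward, as from 5.13% to 10.6% in Myl3. Without peaks in neighbouring genes Myl2, Myl7 and Tnnt2 turn direction.

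This split of adult from fetal isoform genes was found with 5 or 20 kb of flank, at a nearly equal depth-scaled threshold and with the shortened TAC list. Besides the setting without peaks in neighbouring genes, it was not found with at least 20 inferred tags per 10000000. Myl3 (840 bp in Sham and 754 bp in TAC) and Tnni3 (212 and 101 bp) were then less covered in TAC and Myl4 (1010 and 1808 bp) more. In gene bodies alone Myl7 had no peak in either library, the other fetal isoform genes were less covered in TAC and the adult ones more. Of the unshared peaks in the windows, the adult class had 2 in Sham and 6 in TAC, a TAC share of 75% (exact 95% interval 34.9 to 96.8). The fetal class had 9 and 4, a share of 30.8% (9.09 to 61.4). Genes used at both stages had 1 and 4, a share of 80.0% (28.4 to 99.5), so that a high share was not particular to the adult class. In the windows of all protein-coding genes 55.1% of the unshared peaks were TAC peaks, a share that lies within all 3 intervals. In gene bodies alone the unshared peaks numbered 1 and 5 in the adult class, a TAC share of 83.3% (35.9 to 99.6). In the fetal class they numbered 7 and 2, a share of 22.2% (2.81 to 60.0). Genes used at both stages had 1 unshared body peak in Sham and 1 in TAC. The Tnni1 body counted here includes the 16388 bp upstream of its first listed start site. The adult and fetal intervals for gene bodies overlap each other, so these counts do not show that the classes differ. The share in the bodies of all protein-coding genes was not computed, so neither class could be compared with it.

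The deposited lists give no signal per peak, but their order falls into blocks, which were read as steps of 1 tag and are called inferred tags here. Unshared peaks of the members were weaker than shared ones. A shared peak had to be called in both libraries, so the comparison itself tends to put weaker peaks among the unshared. Strength and width of unshared peaks over the whole lists were not computed, so this is no trait of these genes. The median was 13.1 inferred tags per 10000000 for the 12 unshared and 21.5 for the 38 shared Sham peaks, and 11.6 for the 14 unshared and 17.1 for the 37 shared TAC peaks. The strongest unshared TAC peak was the one in the Myl2 body at 122099514, with 29.3 per 10000000. Of the unshared peaks, 9 of 12 in Sham and 12 of 14 in TAC were 501 bp wide, the smallest width among the member peaks. Of the shared peaks, 17 of 38 in Sham and 18 of 37 in TAC had this width, which is also the median of both whole lists.

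In the 38 pairs of overlapping peaks the median ratio of TAC to Sham inferred tags, scaled to depth, was 0.947, against 1.07 over all 88112 pairs of the libraries in which each peak met exactly 1 peak of the other list. For 7 member pairs the exact 95% interval of the ratio lay below 1 and for 2 above it. Over all pairs 8.8% lay below and 15.0% above. The TAC peak was narrower in 15 and wider in 11 of the 38 pairs, against 32.0% and 34.8% of all pairs, and had fewer inferred tags per 10000000 in 21, against 43.6%. Of the 7 pairs, 4 belonged to Tnni1, of whose 8 pairs none lay above. Within the Tnni1 body the inferred tags per 10000000 were 45.3 in Sham and 24.6 in TAC for the peak at 135790710, 38.1 and 17.1 for that at 135792954, and 24.6 and 10.2 for that at 135805069. Each of these peaks was also narrower in TAC, at 891 and 629 bp, 1065 and 501 bp, and 760 and 501 bp in this order. Their tag ratios thus do not compare stretches of equal length. The remaining body pair, at 135789155, had 8.74 and 11.6, with an interval of the ratio from 0.586 to 3.13. In Sham the peaks at 135789155, 135790710 and 135792954 lay 9.77, 7.82 and 5.40 kb upstream of the nearest listed start site. The other Tnni1 pair with an interval below 1 was the widest of the members, at 135820241 in Lad1, the ladinin gene, with 148 in Sham and 100.3 in TAC. The Tnni1 peaks in the 5' flank at 135776608 and 135779692 were the stronger in TAC, but their intervals hold 1.

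Among the other genes, Myl2, Myl4, Myl7 and Tnnt2 also had pairs whose interval does not hold 1. A Tnnt2 flank peak at 135827638, within Lad1, had 42.1 and 12.3, a ratio of 0.292 (0.161 to 0.506). In Myl2 the pair at 122116871 had a ratio of 0.354 (0.175 to 0.676) and its neighbour at 122118715 a ratio of 3.19 (1.74 to 6.23), both in Ccdc63. In Myl4 the pair at 104575974 had 10.3 and 23.2, a ratio of 2.25 (1.16 to 4.64). Both Myl3 pairs and the 4 Tnni3 pairs had intervals that hold 1. Inferred tags are sums over a peak, so they grow with its width.

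**Figure D4:**
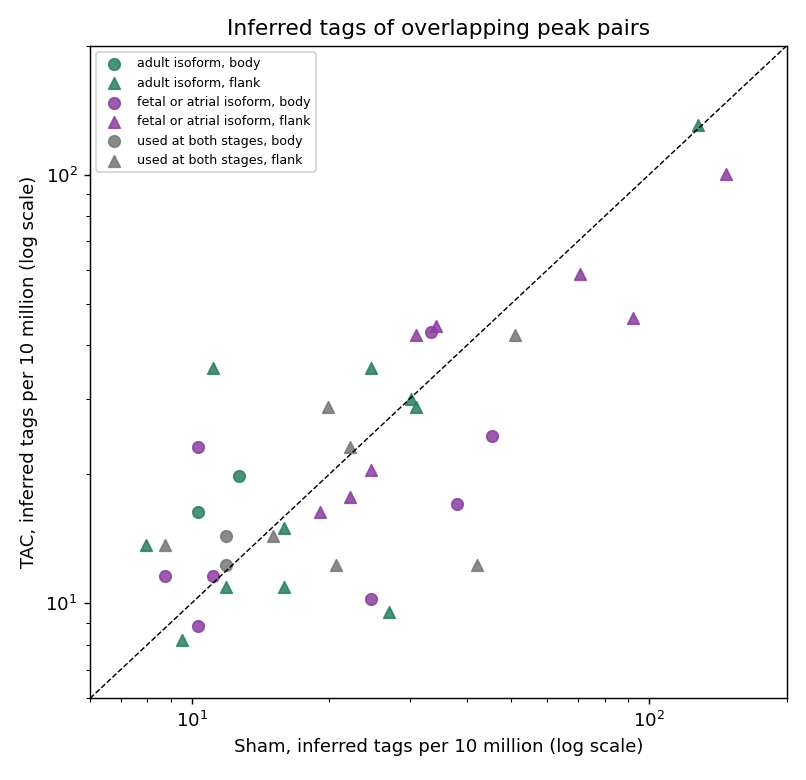
Inferred tags per 10000000 in Sham (x, log scale) and TAC (y, log scale) for the 38 overlapping pairs of member peaks, coloured by isoform class, with circles for gene bodies and triangles for flanks. The dashed line marks equal values. Fetal or atrial isoform genes have 10 of 16 pairs below the line, adult isoform genes 7 of 13, and genes used at both stages 4 of 9.

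Other light chain, troponin, tropomyosin, actin and thin filament genes were counted in the same way from a list of 30, all of which were matched. Their windows held 146 Sham and 162 TAC peaks, with more in TAC in 14 genes, fewer in 9 and equal numbers in 7. Of all protein-coding genes 39.4% had more in TAC and 27.0% fewer. A gene end was covered for 11 of 30 in Sham and 12 of 30 in TAC, with 10 in both. The shares of all protein-coding genes were 23.6%, 24.5% and 16.0%. Tmod1, the gene of the tropomodulin that caps thin filaments, was the single gene of the list covered in Sham alone, like Myl4 and Tnni1. This state was that of 7.68% of all protein-coding genes. Nebl, the nebulette gene, and Mybpc3, the gene of cardiac myosin-binding protein C, were covered in TAC alone, as were 8.59% of all. The skeletal counterparts Tnni2, Tnnc2, Tpm2 and Myl1 had a covered end in both libraries, and the skeletal Tnnt1, Tnnt3, Mylpf and Acta1 in neither. Start sites gave another grouping. Tpm2 and Mylpf had a peak within 1 kb of a listed start site in both libraries, and Tnnc2, Myl1, Tnnt1 and Acta1 in neither. Tnni2 and Tnnt3 were not measured there.

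Because 5mC peaks do not measure expression, the labelled cell type could not be checked by marker levels. Markers of other heart cells were counted as a description. Window peaks numbered 60 in Sham and 57 in TAC for 7 endothelial genes, 20 and 25 for 7 fibroblast genes, 31 and 48 for 7 immune genes, and 26 and 23 for 5 smooth muscle and pericyte genes. For 8 cardiomyocyte genes they numbered 46 and 66, of which Ryr2 alone had 21 and 31. TAC counts were the higher in 3 of 7 endothelial, 3 of 7 fibroblast and 6 of 7 immune genes. They were so in 2 of 5 smooth muscle and pericyte and 5 of 8 cardiomyocyte genes, against 39.4% of all protein-coding genes. The part of other cells in the differences above was not tested.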

How the data were processed

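MeDIP-seq peak lists of 1 Sham and 1 TAC library were used. The input library served the authors as the background for calling peaks, per the file headers. The submitters' processing notes name HOMER (4.5), BWA (0.7.4-r385) and Picard, and the build mm10. Per the file headers, peaks were called in each library with HOMER's style for histone marks, which stitches peaks of 500 bp into regions, at 4-fold over input or more with a Poisson p-value of 1.00e-04, and with tag thresholds of 11 (Sham) and 12 (TAC). The score that the authors deposited is 1 for every peak and ranks nothing.

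Genes were those of RefSeq GRCm38.p6, the assembly that mm10 names, as starts and ends without exons. Start sites, strand and sequences came from a RefSeq promoter table of the same build. Peaks count for a gene on an overlap of 1 bp with its body plus 10 kb and as shared on an overlap of 1 bp. Inferred tags were read from the list order, by counting blocks upward from 8 tags in the last one. Their sums were 99.3% of the tags in peaks that each header gives. This reading is not stated by any source, and it puts 3.25% of peaks in each list below the header's threshold. The nearly equal threshold is 11 inferred tags in Sham and 13 in TAC.

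Intervals are exact (Clopper-Pearson, 95%) and treat peaks or tags as independent. No test between Sham and TAC was possible, and no p-value was computed. Values were computed with Python 3.11.15, pandas 2.3.3, numpy 2.4.6 and scipy 1.17.1, and overlap counting was tested on simulated lists. The genes, isoform classes, related list and marker lists were chosen with earlier results of these data known. Named genes were the 10 members, neighbours under their peaks, and genes of the related list with the gene-end state of a member covered in 1 library alone. Other genes of that list and the marker gene Ryr2 were named after their values were seen. Alternatives were other flanks, assignment by midpoint, leaving out peaks in neighbouring genes, stricter overlaps and thresholds, and other reaches at gene ends. Exons, introns, peak sequences and protein sequences were not analysed here, and 1 neighbouring gene and the peaks in it are not reported singly here.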

Additional observations from a re-analysis of the deposited data

How the results depend on the processing

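The ratio of TAC to Sham peaks over all 10 windows lay between 0.857 and 1.06 under the 8 alternatives tried, that of adult isoform genes between 1.00 and 2.33 and that of fetal isoform genes between 0.667 and 0.833, all within the counting intervals given above. The share of Sham peaks with a TAC counterpart was 57.1% in gene bodies alone. Covered bases scaled with the window: 12372 (Sham) and 11384 (TAC) in gene bodies alone, 19131 and 17752 with 5 kb of flank, and 55442 and 50730 with 20 kb. With at least 20 inferred tags per 10000000 they were 16973 and 12999, gene ends were covered in 2 genes in each library, and start sites in 2 genes in TAC. Gene ends covered in Sham numbered 3 with a reach of 500 bp, and start sites 1 in Sham and 2 in TAC. With a reach of 2 kb, start sites covered in Sham numbered 4, and by peak midpoint 1. Without peaks in neighbouring genes, added after seeing the data, covered bases were 20901 and 20781. Of the values recomputed, 64 stayed within their counting interval or within 1.5 times and 18 did not. The overall ratio lay on both sides of 1, and the adult ratio was 1.00 with the shortened TAC list and with at least 20 inferred tags per 10000000. No paired analysis was possible because each group has 1 library.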

Other observations

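Several strong peaks of the gene windows lay in neighbouring genes. In the window of Tnni3 a peak within Tnnt1, the gene of slow skeletal troponin T (chromosome 7, 4504569 to 4515975), had 161 inferred tags in the Sham and 192 in the TAC list, which is 128 and 131 per 10000000. Tnnt1 itself was covered at neither gene end in either library. The peak within Lad1, which lies between Tnni1 and Tnnt2 on chromosome 1, had 186 and 147 inferred tags and spanned 2361 bp in Sham and 2377 bp in TAC. In the 3' flank of Tpm1 the peak within the long non-coding RNA gene Gm30639 had 64 and 62 inferred tags and spanned 941 and 942 bp. Of the 50 Sham and 51 TAC peaks in the windows, 15 and 14 had their midpoint in another annotated gene.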
